A study of Mus musculus with 6 samples.

Results

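The 34 genes described here encode integrin chains, selectins and a selectin ligand, and the other surface and cytoplasmic proteins with which leukocytes hold on to vessel walls, matrix and each other. They were chosen by name, and all 34 were found by symbol among the 25701 genes of the count table. Integrins are pairs of an α and a β chain that bind matrix proteins or counter-receptors on other cells. In leukocytes they are held inactive until talin and kindlin bind the β chain tail from inside the cell. Selectins catch passing leukocytes on the vessel wall, integrins then arrest them on ICAM and VCAM molecules, and inside a tumor the same receptors anchor macrophages to matrix.

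RNA was measured by poly-A RNA-seq in CD11b+ cells, taken with magnetic beads from collagenase-digested TC1 tumors under the skin, in 3 mice of the MCT2 CO group and 3 of the MCT2 KO group. TC1 cells are tumor cells of mouse lung epithelium. They were injected into the flank of the mice and grew for 24 days, although the sample records give lung as the tissue. All mice were male, on a C57BL/6 background, and carried loxP-flanked alleles of *Slc16a7*, the gene of the monocarboxylate transporter MCT2, together with the tamoxifen-inducible mCre-Tg transgene. Tamoxifen was given to the MCT2 KO mice from an age of 8 weeks and vehicle to the MCT2 CO mice, so deletion and tamoxifen cannot be told apart. Deletion was systemic and the TC1 cells were not targeted. Nothing in the records says that mice were pooled, and each library is treated as 1 mouse. If libraries shared mice, the p-values would measure technical spread only.

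The libraries held 24863611 to 31713704 counts, of which the 34 genes took 0.579% to 0.715%. The targeted gene, *Slc16a7*, had 12.8 ± 2.84 CPM (SD, n = 3) in MCT2 CO and 6.18 ± 1.78 in MCT2 KO, with every MCT2 KO library below every MCT2 CO library (log2 fold change -1.05, standard error 0.24, edgeR adjusted p = 0.37, DESeq2 adjusted p = 0.00908). CPM are counts scaled to a common library total after TMM normalization, which scales libraries so that most genes are level. The macrophage markers *Cd68* (203 to 402 CPM) and *Adgre1* (253 to 538 CPM) were present in all libraries. MCT2 KO replicate 2 and MCT2 CO replicate 3 held the extremes of many genes. In bulk RNA, fewer cells of a type and less RNA per cell cannot be told apart.

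The antigen used for the purification could not be followed at the RNA level. *Itgam*, the gene of CD11b, lies on chromosome 7 of GRCm38 from 128062640 to 128118491, and 99.1% of its exon bases lie inside the span of *Gm49368* on the same strand. It had 0 counts in 5 libraries and 1 count in MCT2 KO replicate 2. *Gm49368* itself had 43 to 91 counts. By default featureCounts leaves out reads that fall in more than 1 gene, and the setting used is not given in the sources used here. The value of *Itgam* is therefore not read as its level, and it was the single member that did not pass the filter on low counts. Among the other 33 members, 16.1% of the exon bases of *Itga1* lay inside *Gm49395* on the same strand, so reads there could be missing in every library. For *Itga4* the share was 18.5%, inside *Cerkl* on the opposite strand. Reads there would be missing only if the counting, whose strand setting is not given, ignored strand. For *Tln1* the share was 3.67%, and for the remaining members it was under 2%.

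To compare levels between genes, CPM were divided by the exon length of each gene in kilobases. The length given with the counts is that of the whole gene span, so intron reads may be included, which would raise this value most in genes with long introns. On this scale the levels ran from *Itgb1* at 260 ± 12 CPM per kb in MCT2 CO (SD, n = 3) to *Itga2* at 0.194 ± 0.0468. *Itgb1* encodes the β1 chain, which pairs with most α chains that bind matrix. *Cd44*, a hyaluronan receptor, followed at 134 ± 3.82 CPM per kb in MCT2 CO. Then came *Itgax* at 107 ± 40.7, *Itgb2* at 95.9 ± 15.7, *Itgb5* at 88.4 ± 2.53 CPM per kb in MCT2 CO, neighbours whose SDs reach into each other, as does that of *Cd44* into *Itgax*. *Tln1* was just below, at 81 ± 4.06 CPM per kb, within the SD of *Itgb2*. *F11r* (52.5 ± 9.03) and *Itga5* (50.3 ± 2.43) followed, again within their spread. At the low end, *Selp*, *Itga7*, *Itgad* and *Itga2* all stayed under 0.5 CPM per kb in both groups. The most abundant chains were thus those of myeloid β2 receptors, of αVβ5 and of β1 receptors for fibronectin and laminin, while the α2 collagen receptor chain and P-selectin were near the limit of counting.

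**Figure D1:**
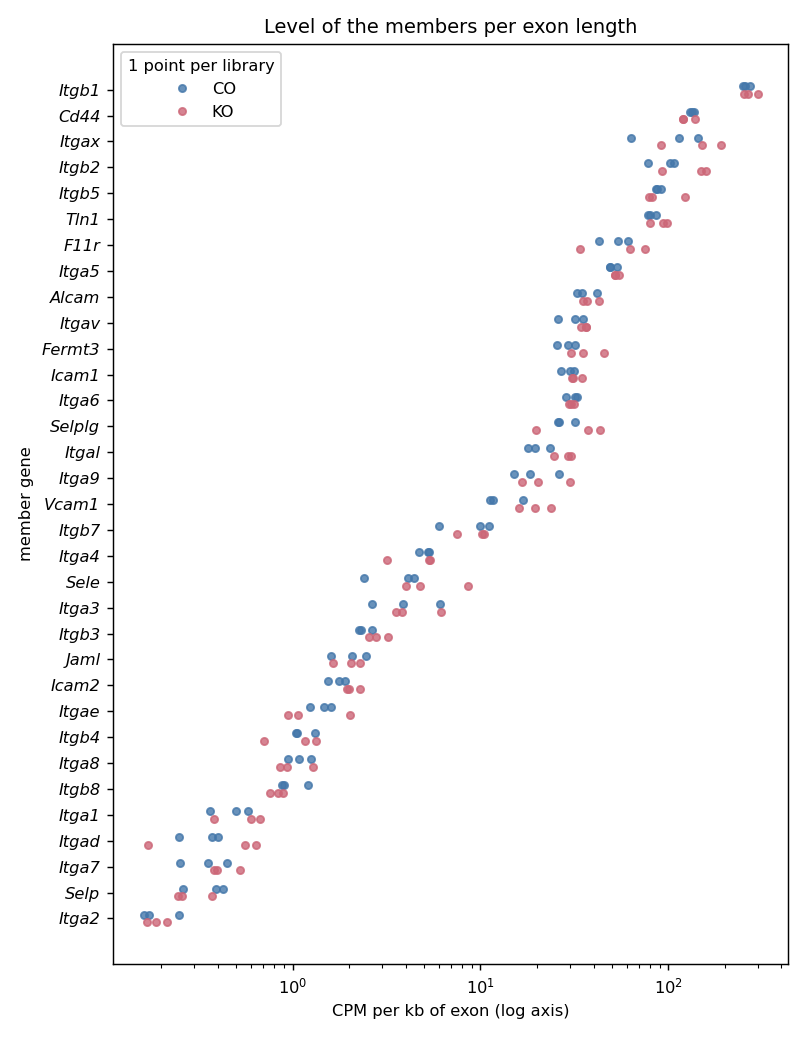
Level of each of the 33 members in CPM per kilobase of exon (log axis), 1 point per library, MCT2 CO in blue and MCT2 KO in red, ordered from the highest to the lowest mean. *Itgb1*, *Cd44*, *Itgax* and *Itgb2* lead, *Itga2* is lowest, and the points of the groups are interleaved for most genes.

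None of the 33 members tested was called between MCT2 KO and MCT2 CO by edgeR's quasi-likelihood test. A call needed both an adjusted p no higher than 0.05 and a log2 fold change of 0.58 or more in either direction. The same test called 0 of all 13485 genes (0%), so the count says nothing particular about adhesion. At an unadjusted p under 0.05 there were 2 members, *Itgal* and *Vcam1*, which is 6.06% of the members against 9.37% of all genes tested. Both were higher in MCT2 KO, where 3.77% of all genes were higher and 5.6% lower at this p. The 3 MCT2 KO libraries lay wholly above the 3 MCT2 CO libraries in *Itgal* and *Icam2* and wholly below in no member. This is again 6.06%, against 15.8% of all genes tested, of which 7.07% lay above and 8.77% below. The adjusted p of the members ran from 0.426 to 0.976. DESeq2, run on every gene with a count, also called 0 members, where it called 83 genes (0.584%). It gave 5 members an unadjusted p under 0.05. The matching share of all genes in DESeq2 was not computed, so this count cannot be set against the 9.37% of edgeR. Fitted log2 fold changes were above 0 for 23 members and below 0 for 10, where 49.9% of all genes were below 0. Their median was 0.128, beside 0.000 over all genes tested, and 1 member (3.03%) was at or past 0.58 in size, against 5.84% of all genes.

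The β2 integrins are the receptors that leukocytes use to bind ICAMs, complement fragments and fibrinogen, and their 4 measured chains had log2 fold changes from 0.41 to 0.48 over all mice. This range widened when single mice were left out, to 0.09 to 0.82 for *Itgad*, 0.16 to 0.70 for *Itgax*, 0.34 to 0.69 for *Itgb2* and 0.38 to 0.59 for *Itgal*. *Itgal* encodes the αL chain of LFA-1, a receptor for ICAM-1 (ENSMUSG00000030830, chromosome 7 of GRCm38, 127296260 to 127335138). It had 128, 155 and 117 CPM in MCT2 CO replicates 1 to 3 and 191, 161 and 199 CPM in MCT2 KO replicates 1 to 3. All MCT2 KO libraries were higher, although MCT2 KO replicate 2 cleared MCT2 CO replicate 2 by only a few CPM. The log2 fold change was 0.46 (standard error 0.13, edgeR adjusted p = 0.426), and the exact two-sided permutation test gave p = 0.1, the smallest that 3 mice against 3 allow. In the 6 fits that each lack 1 mouse, *Itgal* had log2 fold changes between 0.38 and 0.59, and its unadjusted p was under 0.05 in all 6.

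*Itgb2* encodes the β2 chain itself (ENSMUSG00000000290, chromosome 10 of GRCm38, 77530252 to 77565708). It had 313, 328 and 238 CPM in MCT2 CO and 487, 282 and 456 CPM in MCT2 KO. Here the groups overlapped, since MCT2 KO replicate 2 lay below MCT2 CO replicates 1 and 2. The log2 fold change was 0.48 (standard error 0.21, edgeR adjusted p = 0.541), and without MCT2 KO replicate 2 it was 0.69 (standard error 0.14, edgeR adjusted p = 0.362). It was 0.34 (standard error 0.22) without MCT2 KO replicate 1 and 0.35 (standard error 0.23) without MCT2 CO replicate 3. *Itgax*, the αX chain of CD11c, varied most among the abundant members. It had 691, 550 and 305 CPM in MCT2 CO and 915, 439 and 728 CPM in MCT2 KO, with the lowest value in MCT2 CO replicate 3 and the highest in MCT2 KO replicate 1. Its log2 fold change of 0.43 (standard error 0.33, edgeR adjusted p = 0.715) was 0.16 without MCT2 CO replicate 3, 0.19 without MCT2 KO replicate 1 and 0.67 without MCT2 KO replicate 2. *Itgad*, the αD chain, was scarce, at 1.53 ± 0.366 CPM in MCT2 CO, against 2.06 ± 1.14 in MCT2 KO. Its log2 fold change of 0.41 (standard error 0.46, edgeR adjusted p = 0.809) was 0.09 without MCT2 KO replicate 1, 0.82 without MCT2 KO replicate 2 and 0.16 in limma-voom.

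Ratios between chains within a library were also compared, by an exact permutation test that cannot go below p = 0.1 with 3 mice against 3. Per exon length, *Itgax* stood at 1.09 ± 0.296 times *Itgb2* in MCT2 CO and at 1.07 ± 0.112 times in MCT2 KO (SD, n = 3; exact permutation test, p = 1), and it ranged from 0.813 to 1.40 among the MCT2 CO mice alone. *Itgal* stood at 0.213 ± 0.020 and 0.217 ± 0.0435 times *Itgb2* (exact permutation test, p = 1). The balance of β2 to β1 chain RNA was 0.374, 0.427 and 0.305 in MCT2 CO and 0.628, 0.308 and 0.560 in MCT2 KO, so MCT2 KO replicate 2 sat with the MCT2 CO mice (exact permutation test, p = 0.3). In all, 11 ratios between members were computed, and after Benjamini–Hochberg adjustment over them every p was 1.

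Macrophage and monocyte markers were read beside these chains. All 12 had a log2 fold change above 0, with a median of 0.251, and their summed level was 5758 to 7698 CPM in MCT2 CO and 6804 to 10871 CPM in MCT2 KO, highest in MCT2 KO replicate 1 as for *Itgb2* and *Itgax*. Of 11 neutrophil markers, 7 passed the filter on low counts, and 5 of these had an unadjusted p under 0.05 in edgeR with higher values in MCT2 KO. DESeq2 called 4 of them, where it called 0.584% of all genes. *S100a8* had 1.33 to 1.81 CPM in MCT2 CO and 2.45 to 6.92 CPM in MCT2 KO, and *S100a9* had 2.58 to 4.18 and 7.63 to 20.9 CPM, while the neutrophil marker *Ly6g* stayed at or below 0.123 CPM in every library. The summed neutrophil level overlapped, at 80.3 to 101 CPM in MCT2 CO and 63.5 to 182 CPM in MCT2 KO. Most of this sum in every library was *Csf3r*, at 70.9 to 94.3 CPM in MCT2 CO and 41.1 to 120 CPM in MCT2 KO. The 5 neutrophil markers with a low unadjusted p all lay wholly above in MCT2 KO, where 7.07% of all genes tested did. The part of these cell types in the β2 integrin values was not tested.

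**Figure D2:**
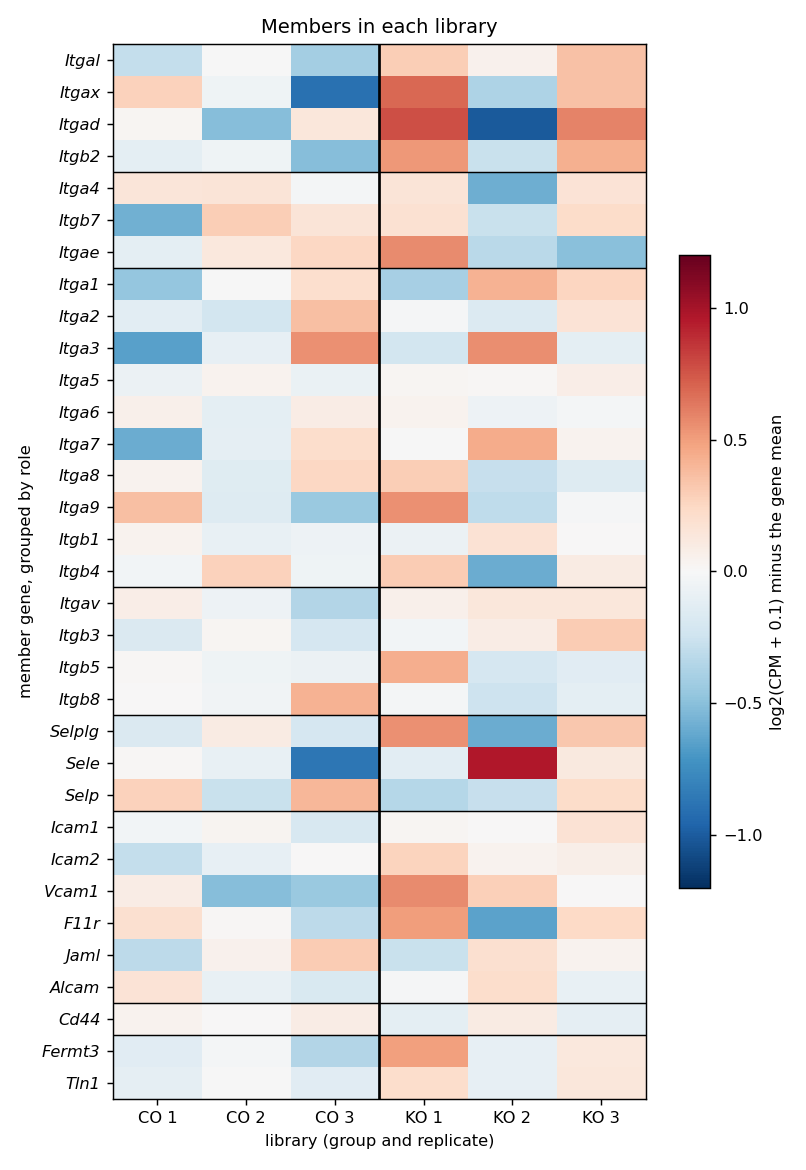
Each row is a member and each column a library, and the color gives the gene's log2(CPM + 0.1) minus its mean over the 6 libraries (red above, blue below). The β2 chains, *Selplg*, *F11r* and *Fermt3* are red in MCT2 KO replicates 1 and 3 and paler or blue in MCT2 KO replicate 2, whereas *Itga5*, *Itga6* and *Itgb1* stay close to white.

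Selectins and their ligand gave the widest spread. *Sele*, the gene of E-selectin of activated endothelium (chromosome 1 of GRCm38, 164048234 to 164057677), had 12.9, 12 and 7 CPM in MCT2 CO and 11.7, 25 and 13.9 CPM in MCT2 KO. Its log2 fold change of 0.67 was the highest among the members (standard error 0.32, edgeR adjusted p = 0.560), and the only one above 0.58. It rested on MCT2 KO replicate 2, without which it was 0.27 (standard error 0.25). The endothelial markers overlapped between the groups, at a summed 46 to 60.8 CPM in MCT2 CO and 56.1 to 62.9 CPM in MCT2 KO, with MCT2 KO replicate 2 at 56.1. Most of this sum was *Kdr* and *Cdh5*, which went opposite ways in that mouse. *Kdr* was lowest in MCT2 KO replicate 2 (15.8 CPM, against 24.2 to 30.1 in the other mice). *Cdh5* was highest there (24.7 CPM, against 11.8 to 21.1), as were the scarcer *Emcn* and *Robo4*. The part of endothelial cells in the value of *Sele* was not tested. *Selplg*, which encodes the leukocyte selectin ligand PSGL-1, had 112, 136 and 110 CPM in MCT2 CO and 185, 83.9 and 159 CPM in MCT2 KO. The highest and the lowest values of *Selplg* were both in MCT2 KO. Its log2 fold change was 0.26 (standard error 0.26) in all mice and 0.53 (standard error 0.12, edgeR adjusted p = 0.362) without MCT2 KO replicate 2, but 0.03 (standard error 0.24) without MCT2 KO replicate 1. *Selp*, the gene of P-selectin of platelets and endothelium, was at 1.59 ± 0.385 CPM in MCT2 CO, against 1.29 ± 0.309 in MCT2 KO, the lowest log2 fold change of the members at -0.31 (standard error 0.29).

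Among the immunoglobulin-superfamily molecules, *Vcam1* stood out from the ICAMs. VCAM-1 is the counter-receptor of α4β1 integrin and is also carried by some macrophages. *Vcam1* (chromosome 3 of GRCm38, 116109949 to 116129688) had 150, 99.5 and 104 CPM in MCT2 CO and 210, 173 and 142 CPM in MCT2 KO. The groups overlapped only in that MCT2 CO replicate 1 was above MCT2 KO replicate 3. The log2 fold change was 0.57 (standard error 0.19, edgeR adjusted p = 0.444), and it lay between 0.43 and 0.78 with each mouse left out. *Icam1*, the ligand of LFA-1, was at 128 ± 10.4 CPM in MCT2 CO, against 141 ± 9.09 in MCT2 KO, with a log2 fold change of 0.13 (standard error 0.09).

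*Icam2*, another LFA-1 ligand, was much less abundant. It had 2.94, 3.35 and 3.61 CPM in MCT2 CO and 4.36, 3.71 and 3.78 CPM in MCT2 KO, which separates the groups by little (log2 fold change 0.26, standard error 0.18, edgeR adjusted p = 0.673). *F11r*, the gene of the junctional molecule JAM-A, had 162, 143 and 114 CPM in MCT2 CO and 201, 90.6 and 167 CPM in MCT2 KO, and its log2 fold change of 0.13 (standard error 0.27) was 0.40 without MCT2 KO replicate 2 and -0.11 without MCT2 KO replicate 1. *Jaml*, a junctional adhesion molecule of leukocytes, and *Alcam*, which binds CD6 on T cells, had log2 fold changes of -0.03 and 0.07, within their standard errors of 0.21 and 0.12.

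**Figure D3:**
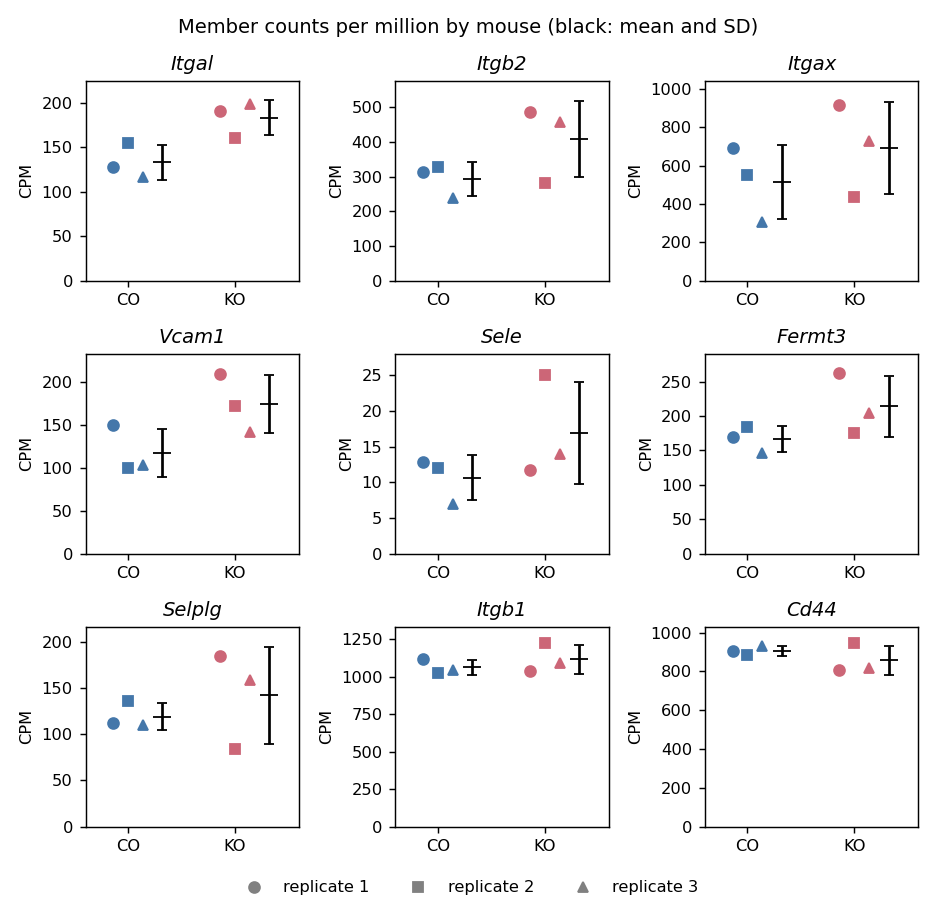
CPM of 9 members by mouse, with replicates 1 to 3 as circles, squares and triangles, and the group mean and SD in black (n = 3). *Itgal* is the one of the 9 in which the groups do not overlap, and MCT2 KO replicate 2 lies at the bottom of MCT2 KO for *Itgb2*, *Itgax*, *Fermt3* and *Selplg* but at the top for *Sele*.

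Among the receptors for fibronectin, laminin and collagen, the abundant chains *Itga5*, *Itga6* and *Itgb1* varied little between mice. *Itga5*, the fibronectin receptor chain α5, had 242, 262 and 241 CPM in MCT2 CO and 258, 256 and 268 CPM in MCT2 KO. *Itga6*, the laminin receptor chain α6, had 289, 256 and 294 CPM in MCT2 CO and 285, 266 and 273 CPM in MCT2 KO. For both genes the group ranges overlapped and the values of all 6 mice lay close together. The log2 fold change of *Itga5* was 0.07 (standard error 0.08) and that of *Itga6* was -0.02 (standard error 0.09), the smallest standard errors of this group. *Itgb1* was at 1061 ± 48.8 CPM in MCT2 CO, against 1115 ± 95.5 in MCT2 KO, with a log2 fold change of 0.07 (standard error 0.11).

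The less abundant chains of this group varied more. *Itga3*, another laminin receptor chain, had 15.1, 22.2 and 34.8 CPM in MCT2 CO and 20.4, 35.0 and 21.9 CPM in MCT2 KO, highest in MCT2 CO replicate 3 and MCT2 KO replicate 2. *Itga9*, whose product binds tenascin and VCAM-1, was at 153 ± 44.1 CPM in MCT2 CO, against 172 ± 53.4 in MCT2 KO, with no group ordering. *Itga1*, *Itga2*, *Itga7*, *Itga8* and *Itgb4* all had at most 12.5 CPM in any library, and their log2 fold changes lay between -0.09 and 0.32, with standard errors of 0.19 to 0.26. The fibroblast markers, a list of cells rich in matrix receptors, had log2 fold changes below 0 in all 7 genes tested, of which DESeq2 called 3 and edgeR 0. DESeq2 called 0.584% of all genes. In 3 of the 7 (42.9%) every MCT2 KO library lay below every MCT2 CO library, against 8.77% of all genes tested. In edgeR, 4 of the 7 (57.1%) had an unadjusted p under 0.05, against 9.37% of all genes. The summed fibroblast level was 2045 to 3355 CPM in MCT2 CO and 1708 to 1819 CPM in MCT2 KO, so the groups did not overlap. Its part in these integrin chains was not tested.

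The αV group binds vitronectin, osteopontin and latent TGF-β. *Itgav*, the α chain, had 376, 342 and 278 CPM in MCT2 CO and 370, 392 and 391 CPM in MCT2 KO. The MCT2 KO mice lay close together and MCT2 CO replicate 3 was lowest (log2 fold change 0.21, standard error 0.12, edgeR adjusted p = 0.623). Without MCT2 CO replicate 3 the log2 fold change of *Itgav* was 0.10 (standard error 0.10). Among the 3 β chains of this group *Itgb5* had the highest level, at 36.7 ± 3.32 times *Itgb3* per exon length in MCT2 CO and 33.9 ± 12.3 times in MCT2 KO. It had 324, 311 and 307 CPM in MCT2 CO, a narrow range, and 436, 280 and 292 CPM in MCT2 KO, where replicate 1 stood alone. *Itgb3*, the β3 chain, was at 14.3 ± 1.24 CPM in MCT2 CO, against 16.9 ± 2.05 in MCT2 KO (log2 fold change 0.24, standard error 0.13). *Itgb8*, whose product takes part in activating latent TGF-β, had 10, 9.69 and 13.4 CPM in MCT2 CO and 9.85, 8.41 and 9.20 CPM in MCT2 KO. Its log2 fold change of -0.27 (standard error 0.16, edgeR adjusted p = 0.631) was below 0 in all 6 fits that leave out a mouse, from -0.35 to -0.11.

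In the α4, β7 and αE chains the groups overlapped throughout. *Itga4*, the α4 chain that binds VCAM-1 and fibronectin, had 73.9, 74.4 and 65.7 CPM in MCT2 CO and 74.5, 44.6 and 75.1 CPM in MCT2 KO, so that 5 mice were alike and MCT2 KO replicate 2 was low. *Itgb7* was at 25 ± 7.35 CPM in MCT2 CO, against 26 ± 4.61 in MCT2 KO. *Itgae*, the gene of CD103, which binds E-cadherin, was at 6.59 ± 0.826 and 6.16 ± 2.67 CPM. MCT2 KO replicate 2 was also lowest for the summed T-cell markers (16.7 CPM, against 49.8 to 105 CPM in the other mice), B-cell markers (37.1 against 94.6 to 123 CPM) and dendritic-cell markers (30.4 against 52.4 to 69.1 CPM). These sums hold 10, 10 and 8 genes. The B-cell sum was mostly *Ighm*, at 19.5 CPM in MCT2 KO replicate 2 and 62.5 to 95 CPM in the other mice. The part of these sums in the values of *Itga4*, *Itgb7* and *Itgae* was not tested.

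**Figure D4:**
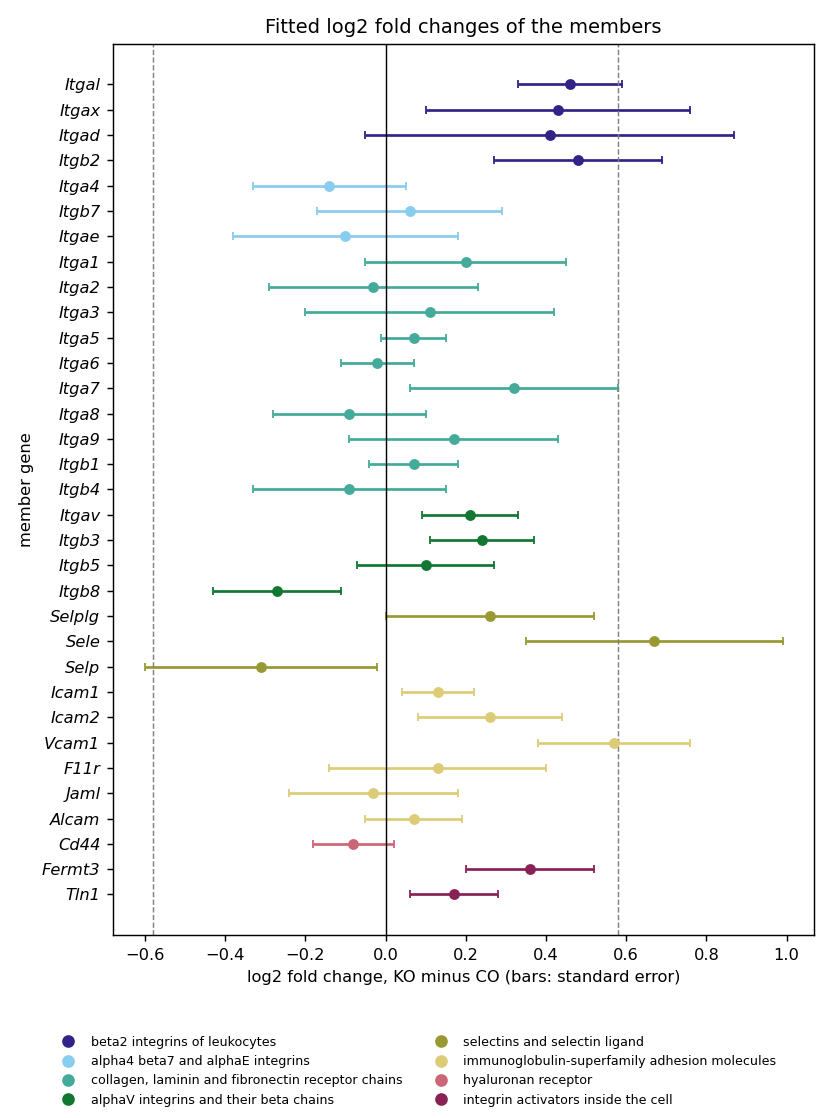
Log2 fold change of each member (MCT2 KO minus MCT2 CO) with the standard error derived from the edgeR test, colored by role, with dashed lines at the fold threshold of 0.58 in both directions. The 4 β2 chains lie between 0.41 and 0.48 with all mice, the bar of *Itgad* reaching below 0, *Sele* alone is beyond the threshold, and most other bars cross 0.

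*Cd44* had 904, 882 and 933 CPM in MCT2 CO and 809, 944 and 816 CPM in MCT2 KO, with MCT2 KO replicate 2 the highest of the 6 (log2 fold change -0.08, standard error 0.10). Relative to *Itgb1* per exon length it stood at 0.488, 0.518 and 0.539 in MCT2 CO and at 0.471, 0.465 and 0.451 in MCT2 KO, so every MCT2 KO mouse was below every MCT2 CO mouse. The exact permutation test gave p = 0.1, the smallest possible, and adjusted over the 11 ratios p was 1. *Fermt3*, the gene of kindlin-3, which switches integrins on in blood cells, had 170, 184 and 147 CPM in MCT2 CO and 263, 175 and 204 CPM in MCT2 KO. Only MCT2 KO replicate 2 lay within the MCT2 CO range. The log2 fold change was 0.36 (standard error 0.16, edgeR adjusted p = 0.538), and it was 0.49 without MCT2 KO replicate 2 and 0.19 without MCT2 KO replicate 1. *Tln1*, the gene of talin-1, was at 794 ± 39.8 CPM in MCT2 CO, against 891 ± 96.9 in MCT2 KO (log2 fold change 0.17, standard error 0.11).

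The count of members with a low unadjusted p moved with single mice. Without MCT2 KO replicate 2, 8 of the 33 members had an unadjusted p under 0.05 in edgeR, all higher in MCT2 KO: *Itgal*, *Itgb2*, *Itgad*, *Selplg*, *Vcam1*, *F11r*, *Fermt3* and *Tln1*. This is 24.2% of the members, against 11.6% of all genes in the same fit, and their adjusted p lay between 0.362 and 0.411, so none passed. Without MCT2 CO replicate 3, in contrast, only *Itgal* had an unadjusted p under 0.05 (3.03%, against 5.8% of all genes). The fits without MCT2 CO replicate 1, MCT2 CO replicate 2, MCT2 KO replicate 1 and MCT2 KO replicate 3 gave 3, 1, 4 and 2 such members. These are 9.09%, 3.03%, 12.1% and 6.06% of the members, where 10.3%, 7.6%, 9.12% and 5.92% of all genes had such a p. Groups did not overlap in 11 members without MCT2 KO replicate 2 (33.3%, against 31.7% of all genes) and in 3 without MCT2 CO replicate 3 (9.09%, against 22.1%). They did not overlap in 5 members without MCT2 CO replicate 1 (15.2%, against 28.5% of all genes) and 10 without MCT2 CO replicate 2 (30.3%, against 24.5%). The same held for 10 members without MCT2 KO replicate 1 (30.3%, against 28.5%) and 4 without MCT2 KO replicate 3 (12.1%, against 22.3%). Among the 6 libraries, MCT2 KO replicate 1 held the highest value of 14 of the 33 members, where it held the highest value of 20.4% of all genes tested. MCT2 CO replicate 3 held the lowest value of 12 of the 33 members, where it held that of 23.2% of all genes.

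**Figure D5:**
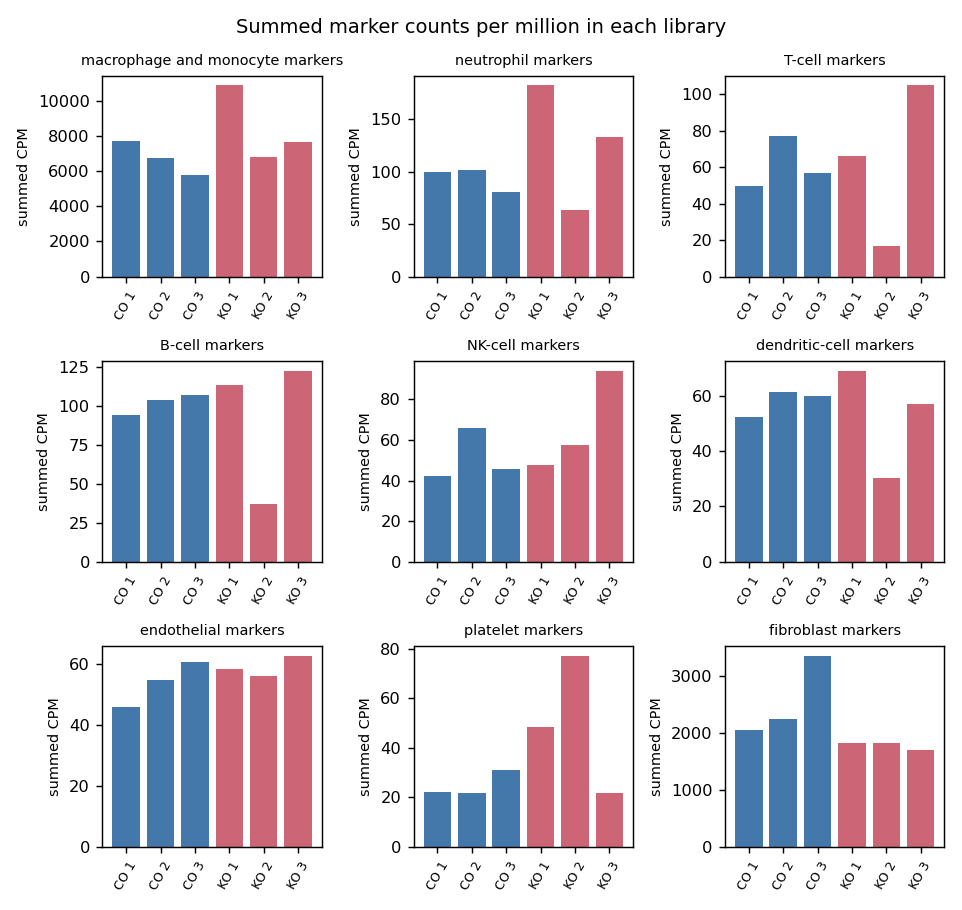
Summed CPM of 9 lists of cell-type markers in each library, MCT2 CO in blue and MCT2 KO in red. MCT2 KO replicate 2 is lowest for neutrophil, T-cell, B-cell and dendritic-cell markers and highest for platelet markers, and MCT2 CO replicate 3 is highest for fibroblast markers. The neutrophil sum is mostly *Csf3r* and the B-cell sum mostly *Ighm*.

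The other genes of adhesion were read from lists of receptors, adaptors, glycosyltransferases and secreted ligands. Of the 108 such genes that were counted, 104 were tested, and edgeR called 0 of them. At an unadjusted p under 0.05 there were 9 (8.65%, against 9.37% of all genes tested), 3 higher and 6 lower in MCT2 KO, and the median log2 fold change was 0.018. The 49 adaptors and activators tested, which link integrins to actin, held all 3 of the higher genes. In this list 4 genes (8.16%) had an unadjusted p under 0.05 in edgeR, against 9.37% of all genes. Its groups did not overlap in 6 genes (12.2%, against 15.8% of all genes). *Parvg*, the gene of the leukocyte parvin, had 43.9, 43.8 and 46.8 CPM in MCT2 CO and 62.6, 66.7 and 49.8 CPM in MCT2 KO (log2 fold change 0.41, standard error 0.12, edgeR adjusted p = 0.426). *Parvb*, another parvin gene, was at 62.4 ± 4.66 and 73.7 ± 1.47 CPM, and *Apbb1ip*, which encodes the Rap1 partner RIAM that brings talin to integrins, at 138 ± 6.14 and 162 ± 10.8 CPM. In each of these 3 genes the groups did not overlap. *Flna*, the gene of the actin crosslinker filamin A, did not overlap either, at 1347 ± 58.3 CPM in MCT2 CO, against 1540 ± 41.9 in MCT2 KO (unadjusted p = 0.0802 in edgeR). *Tgfb1i1*, a paxillin relative, was at 18.7 ± 2.31 and 14.9 ± 1.63 CPM, and *Dok2*, a docking protein gene, had 16.1 to 19.7 CPM in MCT2 CO and 23.5, 37 and 17.2 CPM in MCT2 KO, highest in MCT2 KO replicate 2. For *Dok2* the log2 fold change, 0.50, ran from 0.15 to 0.73 with single mice left out.

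Of 25 secreted ligands tested, 16 had a log2 fold change below 0 (49.9% of all genes did), with a median of -0.087, and 2 (8%) had an unadjusted p under 0.05 in edgeR, against 9.37% of all genes. *Spp1* encodes osteopontin, a ligand of αV integrins and CD44. It had 3911, 4185 and 4305 CPM in MCT2 CO and 3235, 3038 and 3140 CPM in MCT2 KO. All MCT2 KO mice were lower (log2 fold change -0.40, standard error 0.11, edgeR adjusted p = 0.416). In DESeq2, run on every gene with a count, its adjusted p was 0.00692, short of the fold threshold, and 18.8% of its exon bases lie inside another gene's span. *Lama4*, a laminin chain gene, had 74.5, 91.8 and 118 CPM in MCT2 CO and 68.3, 73.8 and 67.2 CPM in MCT2 KO, highest in MCT2 CO replicate 3, the mouse with the highest fibroblast markers. The log2 fold change of *Lama4*, -0.44 (standard error 0.15), ran from -0.58 to -0.25 with single mice left out. Among receptors outside the 34, *Itgb6* (1.13 ± 0.433 and 0.528 ± 0.184 CPM), *Itga10* (9.95 ± 3.60 and 5.54 ± 2.29 CPM) and *Icam5* (6.28 ± 1.82 and 4.04 ± 0.706 CPM) had lower means in MCT2 KO. Their unadjusted p values were 0.0275, 0.0460 and 0.0323 in edgeR, and 35.5% of the exon bases of *Itga10* lie inside another gene's span. None of the 9 glycosyltransferases that build selectin ligands had an unadjusted p under 0.05 in edgeR or was called by DESeq2, and *St3gal6* came nearest at 0.0702 (17.4 ± 3.96 and 13.1 ± 2.56 CPM), with 26% of its exon bases inside another gene's span.

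Of the markers of cells that a CD11b+ preparation could carry along, *Cd3e* had 0.675 to 9.72 CPM, *Flt3* 3.32 to 7.83 CPM, *Cdh5* 11.8 to 24.7 CPM and *Pf4* 18.3 to 70.3 CPM over the 6 libraries. The B-cell marker *Cd79a* had 1.10 to 3.42 CPM in MCT2 CO and 0.419 to 0.583 CPM in MCT2 KO (DESeq2 adjusted p = 0.0152), and the NK-cell marker *Ncr1* had 1.92 to 2.92 and 1.38 to 1.75 CPM. The MCT2 KO libraries lay wholly below the MCT2 CO libraries in 3 of 8 B-cell and 3 of 8 NK-cell markers tested, and wholly above in none. Over all genes tested, 8.77% lay wholly below and 7.07% wholly above. The NK-cell log2 fold changes went both ways, 3 above 0 and 5 below, from -1.09 for *Gzma* to 1.12 for *Prf1*. *Epcam* was at 0.399 to 1.13 CPM, and the epithelial keratin gene *Krt8* stayed at or below 0.168 CPM. *Cdh1*, the gene of E-cadherin in the same list, had 13.2 to 32 CPM and made up most of the summed epithelial level given below. The collagen gene *Col3a1* had 1187 to 2028 CPM in MCT2 CO and 805 to 1017 CPM in MCT2 KO. Summed levels overlapped for NK-cell markers (42 to 65.9 CPM in MCT2 CO, against 47.8 to 94.2 in MCT2 KO), platelet markers (21.8 to 31.1 and 21.7 to 77.3 CPM), epithelial markers (14 to 21 and 18.7 to 33.6 CPM) and mast-cell markers (9.54 to 11.8 and 5.96 to 10.6 CPM). The mast-cell sum was mostly *Kit*, at 6.21 to 10.1 CPM in MCT2 CO and 5.86 to 10.5 CPM in MCT2 KO. The 4 other mast-cell markers did not pass the filter on low counts. *Mcpt4* (0.2 to 2.03 CPM in MCT2 CO, 0 to 0.0803 in MCT2 KO) and *Cpa3* (0.267 to 1.2 and 0.0307 to 0.126 CPM) lay wholly below in MCT2 KO. *Tpsb2* and *Ms4a2* overlapped. DESeq2 called 1 of the 5 markers, against 0.584% of all genes. The part of these cells in the members' values was not tested.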

How the data were processed

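Per the labels, reads were screened with FastQC 0.12.0 and MultiQC 1.28 and mapped by STAR 2.7.11b to GRCm38, and the authors deposited raw counts per gene from featureCounts 2.1.1, with no normalization and no pooling. The annotation and strand setting of the counting are not given in the sources used here. The deposited length column holds whole gene spans in bases, so exon lengths, positions and overlaps were taken from GENCODE M21 on GRCm38, which holds 25645 of the 25701 identifiers. Span lengths were equal for 98.1% of genes but positions for only 2.4%, so the printed positions are those of GENCODE M21 and not of the deposited table.

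Genes kept by filterByExpr (minimum count 10, minimum total 15) numbered 13485. They were normalized by TMM and compared with the quasi-likelihood test of edgeR 4.0.16 in R 4.3.3, without covariates, with Benjamini–Hochberg adjustment over all genes tested. The fold changes are fitted log2 values from these counts. The test gives no standard error. Those printed are the size of the log2 fold change divided by the square root of the test's F statistic. DESeq2 1.42.0, limma 3.58.1, other filters and normalizations, a replicate block and leaving out each mouse were alternatives. The procedure was tested on simulated counts. Libraries of 24863611 or more counts leave counting error small except near 1 CPM.

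The 34 members and all gene lists were chosen with earlier results of these data known. The named genes are all members, the 12 other adhesion genes with the smallest unadjusted p, the first 2 tested genes of each marker list (not all printed), *Slc16a7*, and genes overlapping a member. *Ly6g*, *Csf3r*, *Ighm*, *Gzma*, *Prf1*, *Krt8*, *Col3a1*, *Emcn*, *Robo4*, *Mcpt4*, *Cpa3*, *Tpsb2* and *Ms4a2* were chosen after their values were seen. Replicate numbers come from the sample titles, and nothing pairs the mice.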

Additional observations from a re-analysis of the deposited data

How the results depend on the processing

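No member was called under any alternative run. The count of genes called over the whole table moved from 0 in edgeR to 2 with all genes of at least 1 count, to 79 with DESeq2 on the same genes and to 83 with DESeq2 on every counted gene, and it ran from 0 to 2 with each mouse left out. Members at an unadjusted p under 0.05 numbered 2, and 4 with upper-quartile normalization, 5 with all genes of at least 1 count in edgeR, 5 with DESeq2 on either set of genes, and 1 to 8 with each mouse left out. The share of all genes at that p was computed only for the main fit and the fits lacking a mouse. The counts of the other fits therefore cannot be set against all genes. Members whose groups do not overlap numbered 3 to 11 with each mouse left out, against 2 in all mice. Other adhesion genes at an unadjusted p under 0.05 ran from 5 (without MCT2 CO replicate 3) to 20 (without MCT2 KO replicate 2), against 9. In these 3 fits 5.8%, 11.6% and 9.37% of all genes had such a p. The median log2 fold change of the members stayed between 0.097 and 0.162 in these fits. Signs turned only when a mouse was left out, with ranges of -0.25 to 0.07 for *Itga4*, -0.16 to 0.23 for *Itgb7*, -0.50 to 0.10 for *Itgae*, -0.15 to 0.18 for *Itga2*, -0.18 to 0.47 for *Itga3*, -0.08 to 0.01 for *Itga6*, -0.27 to 0.03 for *Itga8*, -0.10 to 0.42 for *Itga9*, -0.28 to 0.14 for *Itgb4*, -0.13 to 0.21 for *Itgb5*, -0.11 to 0.40 for *F11r*, -0.18 to 0.13 for *Jaml* and -0.02 to 0.18 for *Alcam*. The cause was not tested. Same-numbered mice had deviations correlated at 0.216, -0.247 and -0.161, so the numbers do not pair the mice. The highest correlation was between MCT2 CO replicate 3 and MCT2 KO replicate 2 (0.292), followed by MCT2 CO replicate 2 with MCT2 KO replicate 3 (0.269). With the replicate block, 3 members had an unadjusted p under 0.05, 0 genes were called and the median was 0.131. Depth limits *Itgad*, *Itga2*, *Itga7*, *Selp* and *Icam2*, which had 25 to 139 counts per library.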
